A study of Mus musculus with 10 samples.

Results

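The genes described here are 46 genes of DNA replication and S phase, taken as a named list of symbols and looked up in a deposited table of read counts for 28585 mouse genes. All 46 were found there, and all 46 passed the filter on low counts that left 15151 genes for testing. They comprise 9 genes of origin licensing, 6 of origin firing, 6 of the polymerases and primase, and 10 of the sliding clamp, its loaders, single strand binding and flap processing. The others are 5 genes of deoxynucleotide supply, 6 of chromatin assembly, histone mRNA, checkpoint and repair, and 4 E2F and cyclin E regulators. The symbols were taken from GENCODE M21 on GRCm38. No measured value entered the rule, but the list was chosen with earlier results of these data known.

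RNA was sequenced from cells sorted by their own fluorescence, without staining, from the ischemic brain hemisphere on the side of the lesion. Transgenic CD11c cells (4 libraries, replicates 23, 24, 26 and 27) came from Tg(Itgax-Venus)1Mnz mice 13 to 14 weeks old. In these the promoter of Itgax, the gene of the CD11c integrin chain, drives a yellow fluorescent protein in any cell that uses it, resident or recruited. Parabiotic CD11c cells (3 libraries, replicates 3, 11 and 15) came from C57BL/6 mice 15 to 16 weeks old joined in circulation to a Tg(Itgax-Venus)1Mnz partner. A labelled cell in the wild type brain had thus come from the partner by blood. Microglia (3 libraries, replicates 39, 40 and 41) came from CX3CR1CreERT2:Rosa26-tdT mice 13 to 14 weeks old. An inducible Cre under the control of Cx3cr1 switches on a red reporter in them, and Cx3cr1 is also used by other mononuclear phagocytes. All groups had ischemia, no uninjured group was analysed here, and the time after ischemia is not stated in the labels. The labels state female sex for all libraries except parabiotic replicate 15, which was placed in its group by its title because its labels state neither cell type nor sex. The study asked which genes are particular to infiltrating CD11c cells and to microglia, and the list below addresses how far the copying of DNA differs between them in gene expression. Whether libraries of a group came from separate animals is not stated, so p-values measure the spread between libraries.

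A cell licenses its origins in G1 by loading the MCM helicase, and fires them in S phase when Cdc45 and the GINS complex turn that helicase on. Primase and the replicative polymerases then copy both strands behind it, held by the PCNA clamp, while ribonucleotide reductase and thymidylate enzymes supply the building blocks. Most of these genes are driven by E2F transcription factors at the G1 to S transition, and resting microglia divide rarely but proliferate after brain injury, whereas differentiated dendritic cells divide little.

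E2F sites are the shared regulatory feature for which this gene family is known. Windows from 250 bases before to 50 bases after each listed start of a gene were therefore taken from RefSeq (GRCm38.p6), which matched 37 of the 46 members. Mcm7, Fen1, Uhrf1 and Lig1 had more than 1 window. A gene counted as holding a match if any of its windows did. Promoters are shown for 4 licensing genes, Mcm3, Mcm5, Mcm6 and Cdc6, picked to show what such letters look like; most members with a promoter hold none. Every match to 1 of 4 E2F letter strings (TTTCCCGC, TTTCGCGC, TTTGCCGC and TTTGGCGC, on either strand) is in capitals, and overlapping matches run together.
Mcm3 (chr1:20820263-20820562, minus strand): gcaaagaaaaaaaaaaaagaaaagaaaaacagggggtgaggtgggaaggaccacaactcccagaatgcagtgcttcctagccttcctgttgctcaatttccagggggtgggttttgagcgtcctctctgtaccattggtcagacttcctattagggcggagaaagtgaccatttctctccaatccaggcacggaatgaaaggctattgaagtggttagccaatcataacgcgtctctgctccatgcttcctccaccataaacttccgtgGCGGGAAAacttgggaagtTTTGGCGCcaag
Mcm5 (chr8:75109259-75109558, plus strand): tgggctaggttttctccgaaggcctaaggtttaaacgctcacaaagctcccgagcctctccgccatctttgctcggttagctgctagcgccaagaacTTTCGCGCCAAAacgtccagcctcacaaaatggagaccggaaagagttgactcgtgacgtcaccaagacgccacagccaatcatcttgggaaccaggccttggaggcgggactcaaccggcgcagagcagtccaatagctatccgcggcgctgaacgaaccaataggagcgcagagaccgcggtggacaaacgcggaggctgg
Mcm6 (chr1:128359656-128359955, minus strand): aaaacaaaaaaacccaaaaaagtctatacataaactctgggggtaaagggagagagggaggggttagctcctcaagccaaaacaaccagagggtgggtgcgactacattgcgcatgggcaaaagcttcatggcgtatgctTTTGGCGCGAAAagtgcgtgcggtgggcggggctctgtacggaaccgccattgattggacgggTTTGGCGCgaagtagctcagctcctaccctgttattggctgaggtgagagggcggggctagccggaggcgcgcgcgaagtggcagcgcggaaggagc
Cdc6 (chr11:98907901-98908200, plus strand): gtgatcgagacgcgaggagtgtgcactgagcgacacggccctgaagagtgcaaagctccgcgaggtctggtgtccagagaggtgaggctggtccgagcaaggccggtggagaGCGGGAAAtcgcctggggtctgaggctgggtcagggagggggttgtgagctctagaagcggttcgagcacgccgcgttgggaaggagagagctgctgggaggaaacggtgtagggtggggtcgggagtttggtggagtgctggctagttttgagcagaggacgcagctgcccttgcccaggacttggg

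These letters were present in 14 of the 37 members with a promoter (37.8%), against 704 of all 27025 genes with a promoter in the same window (2.6%) and 488 of the 10640 tested genes with one (4.59%). The 14 were Mcm3, Mcm5, Mcm6, Mcm7, Orc1, Cdc6, Cdt1, Gins3, Pola1, Pold1, Rfc3, Lig1, Uhrf1 and Clspn, so they came from each role except deoxynucleotide supply and the E2F and cyclin E regulators. Mcm6 held 3 matches, at positions -110, -106 and -47 from the start, of which the first pair overlap. CCAAT, the box bound by NF-Y, was in 62.2% of the members, against 42.6% of tested genes and 41.1% of all genes. TTTGAA, the core of the cell cycle homology region of G2 and M genes, was in 13.5% of the members, close to the 14.8% of tested genes, and in 20.2% of all genes. For 18 mitosis genes, of which 16 had a promoter, the shares were 6.25% for the E2F letters, 87.5% for CCAAT and 68.8% for TTTGAA. A match describes letters only, and a promoter without one in this window says nothing of E2F binding.

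Libraries held 31534625 to 41730688 counts, with 20312 to 22165 genes counted in each. Levels are CPM, which are counts scaled to a common library size (counts per 1e6), adjusted between libraries by TMM. The summed level of 10 microglia markers was 8678 to 20826 CPM in transgenic cells, 4031 to 5673 CPM in parabiotic cells and 29232 to 30175 CPM in microglia. That of 10 dendritic cell markers was 4148 to 17111 CPM in transgenic cells, 27184 to 34763 CPM in parabiotic cells and 229 to 348 CPM in microglia, with no marker of either list at 0 in every library of a group. Sall1, a transcription factor of microglia, averaged 104 ± 61.6 CPM in transgenic cells, 0.268 ± 0.122 CPM in parabiotic cells and 387 ± 75.3 CPM in microglia (SD, n = 4, 3 and 3). Transgenic replicate 26 had the highest microglia marker sum and the lowest dendritic cell marker sum of its group. Replicates 26 and 27 carry library numbers apart from the run of numbers that the other 8 libraries share. Whether replicates 26 and 27 were made or sequenced separately is not stated. The 5 astrocyte markers summed to 23.3 to 56.4 CPM in transgenic cells, 6.12 to 8.12 CPM in parabiotic cells and 105 to 176 CPM in microglia. Sums of 8 monocyte markers were 709 to 2587 CPM (transgenic), 1571 to 1993 CPM (parabiotic) and 837 to 1220 CPM (microglia). For 8 oligodendrocyte lineage markers they were 141 to 227, 128 to 144 and 118 to 254 CPM in the same order. Of that list, Cspg4 averaged 87.5, 2.51 and 122 CPM, while Mbp went the other way at 81.7, 130 and 55.5 CPM. The 8 neutrophil markers summed to 0.404 to 18.5 CPM in transgenic cells, 6.00 to 654 CPM in parabiotic cells and 0.198 to 0.43 CPM in microglia, with replicate 11 the highest of the parabiotic libraries. The part of these cell types in the results below was not tested.

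Most of the replication genes were lowest in parabiotic CD11c cells, and none of the 46 passed a test between transgenic CD11c cells and microglia. The mean of log2 CPM over the 46 members was 4.41, 4.39, 5.24 and 4.47 in transgenic replicates 23, 24, 26 and 27, against 3.61, 3.31 and 3.52 in parabiotic replicates 3, 11 and 15 and 4.38, 4.23 and 4.67 in microglia replicates 39, 40 and 41. All 3 parabiotic libraries lay below all 7 others, transgenic replicate 26 lay above all, and the other 3 transgenic libraries lay within the range of the microglia. By group the mean was 4.62 ± 0.41 in transgenic cells, 3.48 ± 0.15 in parabiotic cells and 4.43 ± 0.23 in microglia (SD over libraries), while the same mean over all tested genes was 3.22, 3.08 and 3.16. Every role showed the same split, with all parabiotic libraries below all others. The mean in parabiotic cells minus that in microglia was -1.39 for the E2F and cyclin E regulators, -1.35 for deoxynucleotide supply, -1.34 for the chromatin group, -0.96 for polymerases, -0.92 for licensing, -0.86 for firing and -0.41 for the clamp group. In these bulk samples fewer cycling cells and less of these RNAs per cell cannot be told apart. The mice whose brains gave the parabiotic libraries also differed from both other groups in line, in parabiosis and in age. Their labelled cells, however, came from partners of the same line as the transgenic group. The part of these cannot be told apart from that of the cells.

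**Figure D1:**
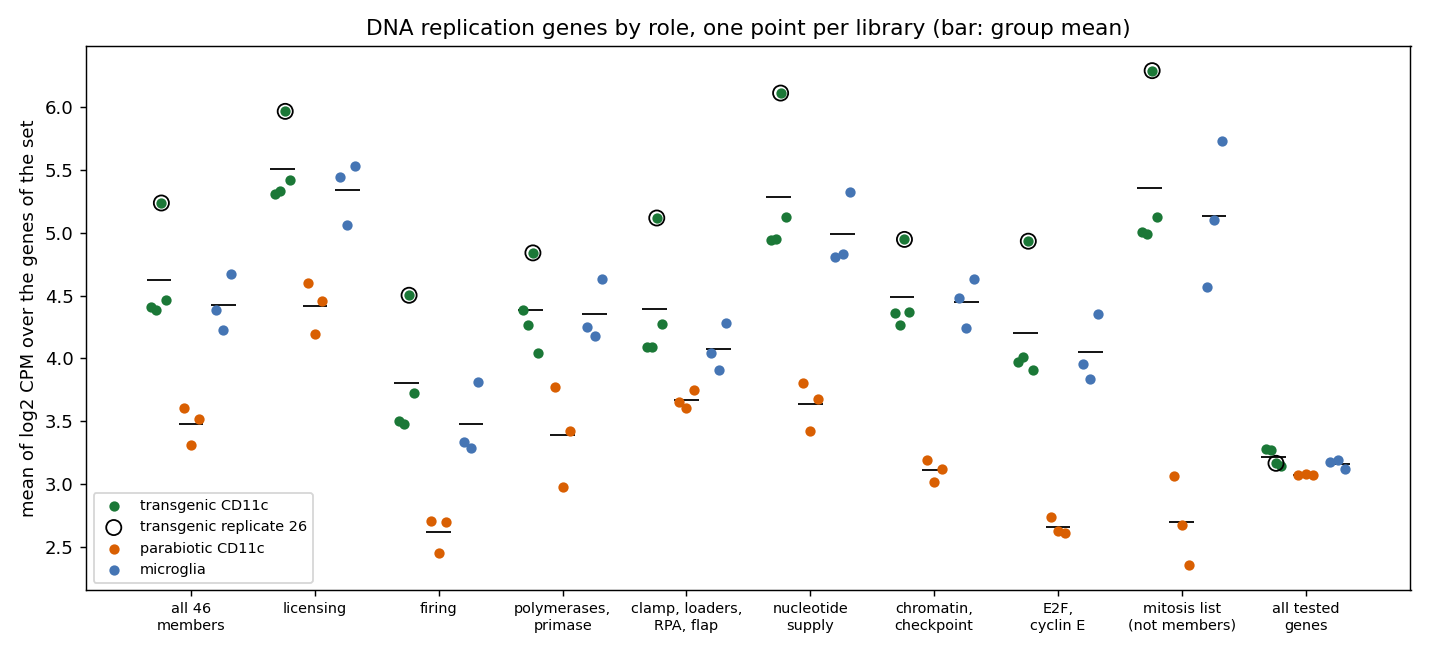
Mean log2 CPM per library (vertical axis) over the 46 replication members, over each role, over 18 mitosis genes and over all tested genes. Within each set the groups stand from left to right as transgenic, parabiotic and microglia, with each point a library, each bar the group mean and transgenic replicate 26 ringed. For the members the parabiotic libraries sit between 3.31 and 3.61, below all others, and transgenic replicate 26 is highest at 5.24.

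In parabiotic CD11c cells against microglia, 21 of the 46 members were lower, 1 was higher and 24 did not pass the test (edgeR quasi-likelihood test, adjusted p under 0.05). Of all 15151 genes tested, 17.9% were lower and 17.4% higher in this comparison. The median log2 fold change of the members was -0.75, over a range of -3.55 to 0.75, against a median of -0.02 over all tested genes. In 34 members every parabiotic library lay below every microglia library, and in 2, Gins3 and Rfc2, every parabiotic library lay above, where all tested genes gave 29.7% and 30.5%. In transgenic CD11c cells against parabiotic ones, 25 members were higher, none was lower and 21 did not pass, beside 7.63% of all genes higher and 2.42% lower. The members' median was 1.04, over a range of -0.38 to 3.27, against 0.04 over all tested genes, and in 33 members every transgenic library lay above every parabiotic one, beside 12.4% of all genes, and in none did all lie below, beside 10.3%. Both comparisons use the same parabiotic libraries, so they are not independent of each other, and the comparison of transgenic cells with microglia below shares libraries with both. Without transgenic replicate 26, 21 members were higher against parabiotic cells and the median was 0.68, and without parabiotic replicate 11 the number was 15.

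In transgenic CD11c cells against microglia none of the 46 members passed the test in either direction, where 8.88% of all genes were higher and 4.79% lower. Of the members, 5 had an unadjusted p under 0.05, DESeq2 called 1 (Gins3, higher) and limma-voom called 0. The members' log2 fold changes ran from -0.34 to 0.83 with a median of 0.29, against 0.02 over all tested genes, and their standard errors from 0.15 to 0.46. That median was -0.04 without transgenic replicate 26, so its side of 0 rested on that library. One member, Gins3, had every transgenic library above every microglia library, and none had all below, beside 15.6% and 14.7% of all genes. Without transgenic replicate 24, 2 members, Gins3 and Chaf1b, passed as higher. By mean CPM, 29 members ranked transgenic, then microglia, then parabiotic. Another 10 ranked microglia, transgenic, parabiotic, 6 ranked transgenic, parabiotic, microglia, and 1 (Rfc2) ranked parabiotic, transgenic, microglia. Since no member passed the test between transgenic cells and microglia, the order of those groups is not resolved. Mouse line and reporter also differed between them, and the part of these cannot be told apart from that of the cells.

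**Figure D2:**
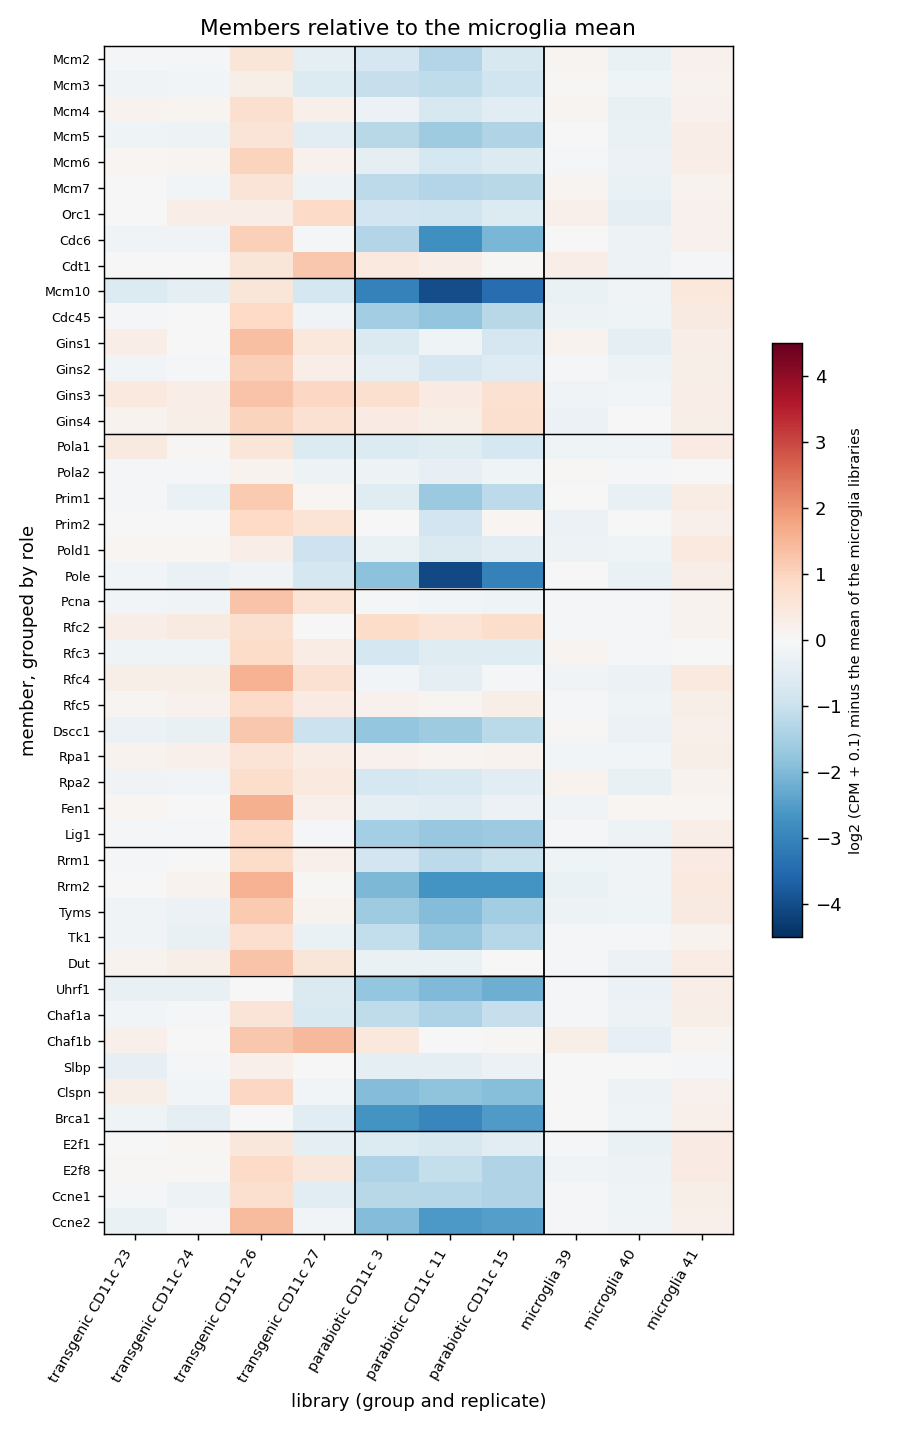
Each row is a member, grouped by role, and each column a library, with transgenic libraries at the left, parabiotic in the middle and microglia at the right; colour is log2(CPM + 0.1) minus the mean of the microglia libraries. The parabiotic columns are mostly below the microglia mean, with Rfc2 the exception that passed the test, and transgenic replicate 26 is the highest transgenic column in 42 of 46 rows.

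Of the 9 licensing genes, 5 were lower in parabiotic cells than in microglia (Mcm2, Mcm3, Mcm5, Mcm7 and Cdc6) and 8 were higher in transgenic than in parabiotic cells, all but Cdt1. Mcm5, a subunit of the MCM2-7 ring that unwinds DNA, had 71.9, 69.3, 122 and 59.2 CPM in transgenic cells. Parabiotic libraries held Mcm5 at 34.3, 26.9 and 32.4 CPM, against 81.2, 67.4 and 101 CPM in microglia, in the order of replicates given above and kept throughout. The parabiotic libraries lay below every other library, and the transgenic and microglia libraries overlapped. The log2 fold change was -1.42 ± 0.27 (SE) in parabiotic cells against microglia (adjusted p = 0.00194) and 1.37 ± 0.26 in transgenic against parabiotic cells (adjusted p = 0.00582). Mcm3, another ring subunit, had 134, 140.0, 182 and 99.0 CPM in transgenic cells. Parabiotic libraries held Mcm3 at 74.1, 68.6 and 80.5 CPM, against 155, 131 and 169 CPM in microglia. Its groups split in the same way, with a log2 fold change of -1.03 ± 0.21 in parabiotic cells against microglia (adjusted p = 0.00299). Mcm7, likewise of the ring, had 41.7, 38.4, 62.5 and 35.9 CPM in transgenic cells. Parabiotic libraries held Mcm7 at 18.3, 16.7 and 17.5 CPM, against 45.1, 34.3 and 46.9 CPM in microglia, again with the parabiotic libraries lowest and no overlap. For Mcm7 the log2 fold change was -1.27 ± 0.22 in parabiotic cells against microglia (adjusted p = 0.00127).

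Of the other ring subunits, Mcm2 passed against microglia and Mcm4 and Mcm6 did not. Mcm6 had 141, 146, 265 and 152 CPM in transgenic cells. Parabiotic libraries held Mcm6 at 98.4, 77.4 and 87.8 CPM, against 129, 111 and 166 CPM in microglia. The log2 fold change of -0.62 ± 0.26 against microglia did not pass (adjusted p = 0.081). Mcm4 had 77.6, 77.3, 116 and 82.2 CPM in transgenic cells. Parabiotic libraries held Mcm4 at 58.8, 42.2 and 49.8 CPM, against 76.3, 56.3 and 81.2 CPM in microglia, with parabiotic replicate 3 above microglia replicate 40 and a log2 fold change of -0.50 ± 0.21 that did not pass (adjusted p = 0.0902). Mcm2 had 72.2, 71.8, 109.6 and 56.6 CPM in transgenic cells. Parabiotic libraries held Mcm2 at 44.5, 30.5 and 46.1 CPM, against 81.9, 60.7 and 86.6 CPM in microglia. Its log2 fold change of -0.92 ± 0.26 passed (adjusted p = 0.017) but did so no longer when parabiotic replicate 11, microglia replicate 39 or microglia replicate 41 was left out. In transgenic against parabiotic cells the log2 fold changes were 0.94 ± 0.24 for Mcm2, 0.81 ± 0.20 for Mcm4 and 1.00 ± 0.24 for Mcm6. These 3 calls, with adjusted p of 0.0324, 0.0278 and 0.0243 by edgeR, were lost when any 1 of the parabiotic libraries was left out, and in a fit of only the groups compared. With a term for the library number run of transgenic replicates 26 and 27, described below, the adjusted p by edgeR was 0.084 for Mcm2, 0.0837 for Mcm4 and 0.0873 for Mcm6. Those of Mcm2 and Mcm4 were also lost without transgenic replicate 26, and that of Mcm2 also without transgenic replicate 23 or microglia replicate 39. The call of Mcm3 against parabiotic cells (0.90 ± 0.20, adjusted p = 0.0151) was lost without parabiotic replicate 3 or 11.

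The loaders of the ring gave different calls. Cdc6, which with the origin recognition complex and Cdt1 loads MCM onto DNA, had 6.47, 6.5, 15.4 and 6.97 CPM in transgenic cells. Parabiotic libraries held Cdc6 at 2.87, 0.973 and 1.67 CPM, against 7.43, 6.20 and 8.26 CPM in microglia. Parabiotic libraries were lowest without overlap, with log2 fold changes of -1.99 ± 0.45 in parabiotic cells against microglia (adjusted p = 0.00543) and 2.26 ± 0.43 in transgenic against parabiotic cells (adjusted p = 0.00688). Cdt1, the other loader, whose protein is destroyed in S phase, had 31.4, 30.7, 45.3 and 71.2 CPM in transgenic cells. Parabiotic libraries held Cdt1 at 41.9, 38.2 and 31.6 CPM, against 37.8, 26.2 and 29.4 CPM in microglia, so that all 3 groups overlapped and transgenic replicate 27 was highest. Its log2 fold change was 0.26 ± 0.30 in parabiotic cells against microglia and 0.26 ± 0.28 in transgenic against parabiotic cells, and neither passed (adjusted p = 0.542 and 0.648). Orc1, the origin recognition subunit that comes and goes with the cell cycle in mammalian cells, had 3.52, 4.39, 4.33 and 6.43 CPM in transgenic cells. Parabiotic libraries held Orc1 at 1.90, 1.86 and 2.25 CPM, against 4.12, 2.64 and 3.99 CPM in microglia. For Orc1 the log2 fold change was -0.84 ± 0.31 in parabiotic cells against microglia (adjusted p = 0.0543, not passed) and 1.22 ± 0.30 in transgenic against parabiotic cells (adjusted p = 0.0231), a call lost without any 1 of the parabiotic libraries or with the library number run term (adjusted p = 0.0653).

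Of the 6 firing genes, Mcm10 and Cdc45 were lower in parabiotic cells than in microglia and higher in transgenic than in parabiotic cells, and the 4 GINS subunits passed in neither comparison. Mcm10 (chromosome 2, 4989714 to 5012791, minus strand, GRCm38), which helps activate the loaded helicase, had 12.1, 13.8, 27.1 and 10.8 CPM in transgenic cells. Parabiotic libraries held Mcm10 at 2.21, 1.09 and 1.64 CPM, against 15.1, 16.7 and 26.1 CPM in microglia. No parabiotic library came near the others, and the log2 fold change of -3.55 ± 0.42 against microglia (adjusted p = 0.000102) was the lowest of the 46 members. In transgenic against parabiotic cells it was 3.27 ± 0.41 (adjusted p = 0.000589), the highest of the members. Cdc45, which joins MCM and GINS in the active helicase, had 10.6, 10.7, 20.3 and 9.86 CPM in transgenic cells. Parabiotic libraries held Cdc45 at 3.65, 3.10 and 4.52 CPM, against 9.32, 9.67 and 14.7 CPM in microglia, with log2 fold changes of -1.58 ± 0.33 (adjusted p = 0.00326) in parabiotic cells against microglia and 1.78 ± 0.31 (adjusted p = 0.00439) in transgenic against parabiotic cells.

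The GINS subunits, which form 1 complex of 4 proteins, differed in sign. Gins3 had 6.67, 5.99, 11.9 and 9.43 CPM in transgenic cells. Parabiotic libraries held Gins3 at 8.13, 6.39 and 7.89 CPM, against 4.35, 4.42 and 5.98 CPM in microglia, with every transgenic and every parabiotic library above every microglia library. Its log2 fold change was 0.60 ± 0.29 in parabiotic cells against microglia (adjusted p = 0.13) and 0.79 ± 0.27 in transgenic cells against microglia (adjusted p = 0.0761), neither past the threshold. Gins4 had log2 fold changes of 0.44 ± 0.24 in parabiotic cells against microglia and 0.56 ± 0.23 in transgenic cells against microglia, while Gins1 and Gins2 had -0.57 ± 0.36 and -0.61 ± 0.31 in parabiotic cells against microglia. Gins1 spanned 8.20 to 21.2 CPM in transgenic cells, 4.74 to 7.06 CPM in parabiotic cells and 5.99 to 10.0 CPM in microglia. Gins2 spanned 9.88 to 22.5 CPM in transgenic cells, 6.33 to 7.90 CPM in parabiotic cells and 9.24 to 12.9 CPM in microglia, so that its parabiotic libraries lay below all others. Gins4 spanned 23.9 to 42.8 CPM in transgenic cells, 25.2 to 34.6 CPM in parabiotic cells and 17.7 to 25.2 CPM in microglia, with all groups overlapping. Gins2 shares 67.3% of its exon bases with Gse1 on the other strand, and the library kit does not mark strand, so reads of both cannot be told apart there.

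Of the 6 polymerase and primase genes, Pole alone was lower in parabiotic cells than in microglia, and Pole and Prim1 were higher in transgenic than in parabiotic cells. Pole, the catalytic subunit of the leading strand polymerase epsilon, had 17.4, 15.2, 16.8 and 10.8 CPM in transgenic cells. Parabiotic libraries held Pole at 5.17, 1.03 and 2.22 CPM, against 19.1, 15.2 and 22.7 CPM in microglia. Parabiotic libraries were lowest, and replicate 3 stood above the other two. The log2 fold change was -2.75 ± 0.47 in parabiotic cells against microglia (adjusted p = 0.00102) and -3.54 without parabiotic replicate 3, and it was 2.42 ± 0.45 in transgenic against parabiotic cells (adjusted p = 0.00576) and 3.20 without that replicate. Pold1, the catalytic subunit of the lagging strand polymerase delta, had 41.8, 42.4, 49.2 and 20.8 CPM in transgenic cells. Parabiotic libraries held Pold1 at 32.4, 25.1 and 28.8 CPM, against 33.9, 34.4 and 53.8 CPM in microglia, with transgenic replicate 27 below every other library and a log2 fold change of -0.50 ± 0.30 in parabiotic cells against microglia that did not pass (adjusted p = 0.215). Prim1, the catalytic primase subunit, had 13.1, 11.4, 31.4 and 14.8 CPM in transgenic cells. Parabiotic libraries held Prim1 at 9.53, 4.32 and 6.13 CPM, against 13.7, 11.2 and 17.7 CPM in microglia. Its call in transgenic against parabiotic cells (1.41 ± 0.39, adjusted p = 0.0434) was lost without transgenic replicate 26, parabiotic replicate 11 or 15, or any 1 of the microglia libraries. By edgeR it was also lost with the library number run term (adjusted p = 0.17) and with only the groups compared (adjusted p = 0.0922). Limma-voom did not call it either (adjusted p = 0.056). Pola1 and Pola2, subunits of the polymerase that extends the primer, and Prim2, the second primase subunit, had log2 fold changes of -0.67 ± 0.28, -0.26 ± 0.16 and -0.21 ± 0.31 in parabiotic cells against microglia, none past the threshold. Pola1 spanned 12.8 to 28.7 CPM in transgenic cells, 11.4 to 13.5 CPM in parabiotic cells and 17.3 to 25.3 CPM in microglia. Pola2 spanned 23.7 to 30.6 CPM in transgenic cells, 21.2 to 24.1 CPM in parabiotic cells and 25.9 to 28.6 CPM in microglia. Prim2 spanned 12.8 to 23.8 CPM in transgenic cells, 6.93 to 13.4 CPM in parabiotic cells and 10.6 to 15.0 CPM in microglia, and of these 3 genes the parabiotic and microglia libraries overlapped in Prim2 alone.

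Of the 10 clamp, clamp loader, single strand binding and flap genes, Lig1 and Dscc1 were lower and Rfc2 was higher in parabiotic cells than in microglia, and Lig1 and Rpa2 were higher in transgenic than in parabiotic cells. Lig1, the ligase that seals Okazaki fragments, had 37.8, 37.5, 72.3 and 37.6 CPM in transgenic cells. Parabiotic libraries held Lig1 at 13.8, 12.3 and 12.7 CPM, against 38.1, 33.7 and 49.6 CPM in microglia. The parabiotic libraries lay far below all others, with log2 fold changes of -1.65 ± 0.27 in parabiotic cells against microglia (adjusted p = 0.000893) and 1.84 ± 0.27 in transgenic against parabiotic cells (adjusted p = 0.00134). Pcna, the sliding clamp and a gene often read as a sign of proliferation, had 33.7, 33.1, 90.2 and 56.9 CPM in transgenic cells. Parabiotic libraries held Pcna at 34.3, 33.7 and 32.0 CPM, against 35.6, 34.3 and 40.7 CPM in microglia. Its parabiotic libraries were level with transgenic replicates 23 and 24 and just under the microglia, and the log2 fold change was -0.15 ± 0.33 in parabiotic cells against microglia (adjusted p = 0.762) and 0.68 ± 0.31 in transgenic against parabiotic cells (adjusted p = 0.211). A Pcna pseudogene was counted separately with 395 counts over all 10 libraries.

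Rfc2 (chromosome 5, 134581366 to 134601805, plus strand, GRCm38), a small subunit shared by clamp loader complexes, had 69.4, 74.6, 92.9 and 55.4 CPM in transgenic cells. Parabiotic libraries held Rfc2 at 101, 87.1 and 96.7 CPM, against 53.3, 52.4 and 63.4 CPM in microglia. Every parabiotic library lay above every microglia library, with a log2 fold change of 0.75 ± 0.19 (adjusted p = 0.01). It did not pass without microglia replicate 40 (adjusted p = 0.0638). Rfc2 shares 15.1% of its exon bases with Lat2 on the other strand, which itself had a log2 fold change of 0.52 ± 0.16 in parabiotic cells against microglia (adjusted p = 0.0271), and how far reads of Lat2 add to Rfc2 was not tested. Rfc3, Rfc4 and Rfc5, other clamp loader subunits, had log2 fold changes of -0.64 ± 0.27, -0.24 ± 0.35 and 0.19 ± 0.21 in parabiotic cells against microglia, and none passed. Rfc3 spanned 12.4 to 25.3 CPM in transgenic cells, 8.16 to 9.75 CPM in parabiotic cells and 13.4 to 15.5 CPM in microglia. Rfc4 spanned 10.7 to 26.6 CPM in transgenic cells, 6.60 to 8.35 CPM in parabiotic cells and 7.34 to 11.9 CPM in microglia. Rfc5 spanned 24.1 to 40.2 CPM in transgenic cells, 24.3 to 26.7 CPM in parabiotic cells and 19.5 to 26.7 CPM in microglia, and of these 3 genes the parabiotic libraries lay below all microglia libraries in Rfc3 alone.

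Dscc1, of the alternative clamp loader used in sister chromatid cohesion, had 3.43, 3.24, 9.74 and 2.07 CPM in transgenic cells. Parabiotic libraries held Dscc1 at 1.18, 1.31 and 1.73 CPM, against 4.32, 3.41 and 4.84 CPM in microglia. Its call against microglia (-1.57 ± 0.52, adjusted p = 0.0344) was lost without any 1 of the parabiotic or microglia libraries. That call was also lost with limma-voom (adjusted p = 0.0508). Rpa1 and Rpa2 are subunits of the protein that coats single stranded DNA. Rpa1 had 76.2, 80.1, 105 and 85.2 CPM in transgenic cells. Parabiotic libraries held Rpa1 at 77.7, 74.3 and 76.0 CPM, against 62.8, 62.1 and 81.8 CPM in microglia, with all groups overlapping and a log2 fold change of 0.14 ± 0.17 in parabiotic cells against microglia (adjusted p = 0.553). Rpa2 had 16.8, 16.8, 32.5 and 25.0 CPM in transgenic cells. Parabiotic libraries held Rpa2 at 10.8, 11.5 and 13.3 CPM, against 20.5, 14.9 and 20.9 CPM in microglia. It was higher in transgenic than in parabiotic cells by 0.94 ± 0.26 (adjusted p = 0.0411). This call was lost without transgenic replicate 26 or any 1 of the parabiotic or microglia libraries. By edgeR it was also lost with the library number run term (adjusted p = 0.14) and with only the groups compared (adjusted p = 0.0814). Limma-voom did not call it either (adjusted p = 0.0576). Fen1, the flap endonuclease, had the lowest level for its length of the members in transgenic cells and in microglia. Its levels, not scaled to length, were 1.53, 1.40, 4.5 and 1.70 CPM in transgenic cells, 1.06, 1.00 and 1.18 CPM in parabiotic cells and 1.27, 1.5 and 1.52 CPM in microglia. Of its exon bases 78.8% are shared with the antisense gene Gm10143 (103 counts over all libraries) and 5.37% with the protein-coding Tmem258 on the other strand (13898 counts, against 606 for Fen1), so its level is uncertain.

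**Figure D3:**
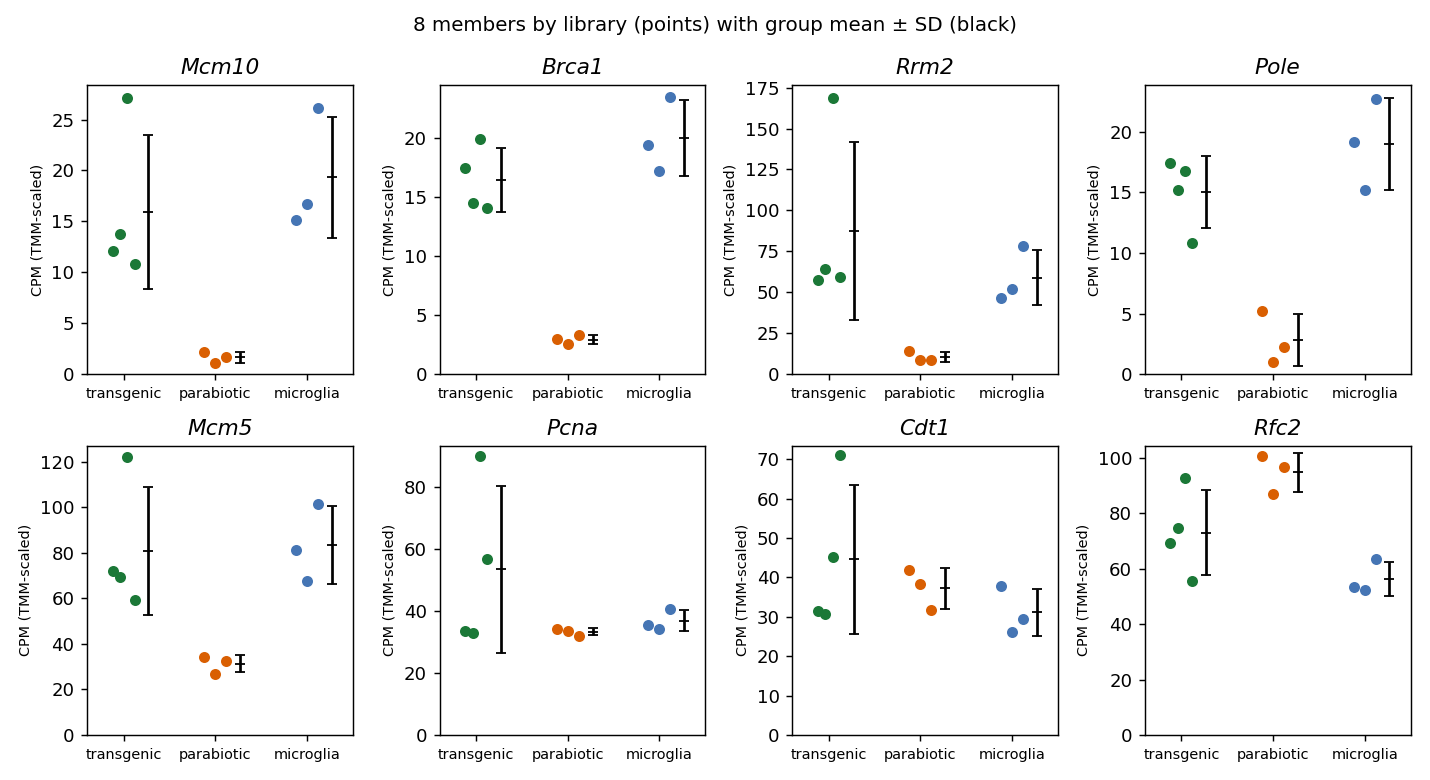
CPM per library (vertical axis, linear from 0) for 8 members, with transgenic, parabiotic and microglia libraries from left to right, each point a library and the black marks the group mean ± SD. Mcm5, Mcm10, Pole, Rrm2 and Brca1 were lowest in the parabiotic libraries, Pcna was level there with transgenic replicates 23 and 24, the groups of Cdt1 overlapped, and Rfc2 was higher there than in every microglia library.

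Of the 5 deoxynucleotide supply genes, Rrm1, Rrm2, Tyms and Tk1 were lower in parabiotic cells than in microglia, and the same 4 were higher in transgenic than in parabiotic cells. Rrm2, the S phase subunit of ribonucleotide reductase, had 57.4, 64.1, 169 and 59.0 CPM in transgenic cells. Parabiotic libraries held Rrm2 at 14.1, 8.91 and 8.80 CPM, against 46.5, 52.0 and 78.3 CPM in microglia. Parabiotic libraries were lowest and transgenic replicate 26 stood far above the rest. The log2 fold change was -2.47 ± 0.43 in parabiotic cells against microglia (adjusted p = 0.00124). It was 3.04 ± 0.43 in transgenic against parabiotic cells (adjusted p = 0.00127), or 2.45 without replicate 26. Rrm1, the large subunit of the same enzyme, present through the cell cycle, had 94.5, 97.9, 176 and 117 CPM in transgenic cells. Parabiotic libraries held Rrm1 at 54.9, 43.3 and 49.5 CPM, against 85.6, 88.7 and 128 CPM in microglia, with a smaller log2 fold change of -1.03 ± 0.25 in parabiotic cells against microglia (adjusted p = 0.00867), although the difference between the subunits was not tested. Tyms, thymidylate synthase, had 16.9, 15.6, 42.6 and 21.3 CPM in transgenic cells. Parabiotic libraries held Tyms at 6.20, 4.87 and 6.31 CPM, against 16.1, 16.7 and 25.1 CPM in microglia. Parabiotic libraries were lowest without overlap, and the log2 fold change against microglia was -1.73 ± 0.37 (adjusted p = 0.00406). Tk1, the salvage thymidine kinase, had 25.3, 22.5, 48.0 and 22.9 CPM in transgenic cells. Parabiotic libraries held Tk1 at 13.0, 8.64 and 11.5 CPM, against 26.7, 27.1 and 31.3 CPM in microglia. It split in the same way, with -1.36 ± 0.30 against microglia (adjusted p = 0.00448). Tk1 was higher in transgenic than in parabiotic cells by 1.43 ± 0.28 (adjusted p = 0.00843), a call lost without parabiotic replicate 11. Dut, which keeps uracil out of DNA, had 11.7, 12.7, 25.7 and 15.3 CPM in transgenic cells. Parabiotic libraries held Dut at 8.47, 8.39 and 10.7 CPM, against 9.94, 8.78 and 13.1 CPM in microglia. It passed in no comparison.

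Of the 6 chromatin, histone mRNA, checkpoint and repair genes, Uhrf1, Chaf1a, Clspn and Brca1 were lower in parabiotic cells than in microglia and higher in transgenic than in parabiotic cells. Brca1 (chromosome 11, 101488764 to 101551955, minus strand, GRCm38), which repairs broken forks by recombination, had 17.4, 14.5, 19.9 and 14.0 CPM in transgenic cells. Parabiotic libraries held Brca1 at 2.96, 2.52 and 3.28 CPM, against 19.3, 17.2 and 23.4 CPM in microglia. Libraries of each group were close together and the parabiotic ones lowest, giving log2 fold changes of -2.77 ± 0.23 in parabiotic cells against microglia (adjusted p = 9.97e-06) and 2.49 ± 0.22 in transgenic against parabiotic cells (adjusted p = 5.48e-05), each with the lowest adjusted p of the 46 members in its comparison. Uhrf1, which carries DNA methylation over to the new strand, had 33.8, 33.6, 43.1 and 27.2 CPM in transgenic cells. Parabiotic libraries held Uhrf1 at 12.7, 10.7 and 9.32 CPM, against 40.8, 35.9 and 53.1 CPM in microglia, with -1.99 ± 0.22 (adjusted p = 6.55e-05) in parabiotic cells against microglia. Clspn, the fork checkpoint adaptor, had 7.40, 5.63, 12.02 and 5.63 CPM in transgenic cells. Parabiotic libraries held Clspn at 1.52, 1.70 and 1.58 CPM, against 6.36, 5.31 and 7.06 CPM in microglia, with -1.96 ± 0.33 (adjusted p = 0.000872) in the same comparison.

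The 2 listed subunits of chromatin assembly factor 1, which places histones on new DNA, gave different calls. Chaf1a had 17.7, 18.3, 28.7 and 11.98 CPM in transgenic cells. Parabiotic libraries held Chaf1a at 8.59, 7.33 and 9.38 CPM, against 18.6, 16.4 and 23.2 CPM in microglia. Its log2 fold change of -1.20 ± 0.29 in parabiotic cells against microglia passed (adjusted p = 0.00797). Chaf1b had 16.6, 13.9, 32.8 and 39.3 CPM in transgenic cells. Parabiotic libraries held Chaf1b at 19.6, 14.2 and 14.6 CPM, against 16.9, 11.0 and 15.4 CPM in microglia, with parabiotic and microglia libraries overlapping and transgenic replicates 26 and 27 highest, and its log2 fold change of 0.16 ± 0.37 did not pass (adjusted p = 0.771). The difference between the 2 genes was not tested, and 52.5% of the exon bases of Chaf1a are shared with Ubxn6 on the other strand. Ubxn6 held 15004 counts over all libraries, against 5717 for Chaf1a. By edgeR it had 0.51 ± 0.14 in parabiotic cells against microglia (adjusted p = 0.0172). In transgenic against parabiotic cells Ubxn6 had -0.52 ± 0.13 (adjusted p = 0.0301). How far reads of Ubxn6 add to Chaf1a was not tested. The call of Chaf1a in transgenic against parabiotic cells (1.18 ± 0.28, adjusted p = 0.0198) was lost without any 1 of the parabiotic libraries. By edgeR it was also lost with the library number run term (adjusted p = 0.0544) and with only the groups compared (adjusted p = 0.0539). Slbp, which binds the stem loop of histone mRNA, had 57.3, 71.4, 87.3 and 75.1 CPM in transgenic cells. Parabiotic libraries held Slbp at 56.5, 55.8 and 61.0 CPM, against 75.8, 75.2 and 71.0 CPM in microglia. It passed in no comparison.

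Of the 4 E2F and cyclin E regulators, E2f8, Ccne1 and Ccne2 were lower in parabiotic cells than in microglia and higher in transgenic than in parabiotic cells. Ccne2, a cyclin E that drives Cdk2 into S phase, had 13.0, 15.3, 43.1 and 14.8 CPM in transgenic cells. Parabiotic libraries held Ccne2 at 4.11, 2.62 and 2.79 CPM, against 15.2, 14.4 and 18.7 CPM in microglia. Parabiotic libraries were lowest, transgenic replicate 26 stood apart, and the log2 fold change was -2.34 ± 0.45 in parabiotic cells against microglia (adjusted p = 0.00201) and 2.76 ± 0.44 in transgenic against parabiotic cells (adjusted p = 0.00238), or 2.12 without replicate 26. Ccne1, the other cyclin E, had 10.4, 9.46, 18.4 and 7.82 CPM in transgenic cells. Parabiotic libraries held Ccne1 at 4.65, 4.5 and 4.31 CPM, against 10.8, 9.61 and 13.2 CPM in microglia, with -1.32 ± 0.31 (adjusted p = 0.00643) in parabiotic cells against microglia, and its call in transgenic against parabiotic cells (1.36 ± 0.29, adjusted p = 0.0131) was lost without any 1 of the parabiotic libraries. E2f8, an E2F that represses, had 13.3, 13.3, 23.3 and 18.0 CPM in transgenic cells. Parabiotic libraries held E2f8 at 4.77, 6.05 and 4.86 CPM, against 11.5, 10.9 and 16.4 CPM in microglia, with -1.31 ± 0.27 (adjusted p = 0.00335) in parabiotic cells against microglia. E2f1, an activating E2F, had 33.2, 34.6, 46.6 and 23.8 CPM in transgenic cells. Parabiotic libraries held E2f1 at 21.2, 19.5 and 22.9 CPM, against 30.4, 26.7 and 42.5 CPM in microglia, and neither -0.65 ± 0.25 in parabiotic cells against microglia (adjusted p = 0.0638) nor 0.70 ± 0.24 in transgenic against parabiotic cells (adjusted p = 0.0886) passed.

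**Figure D4:**
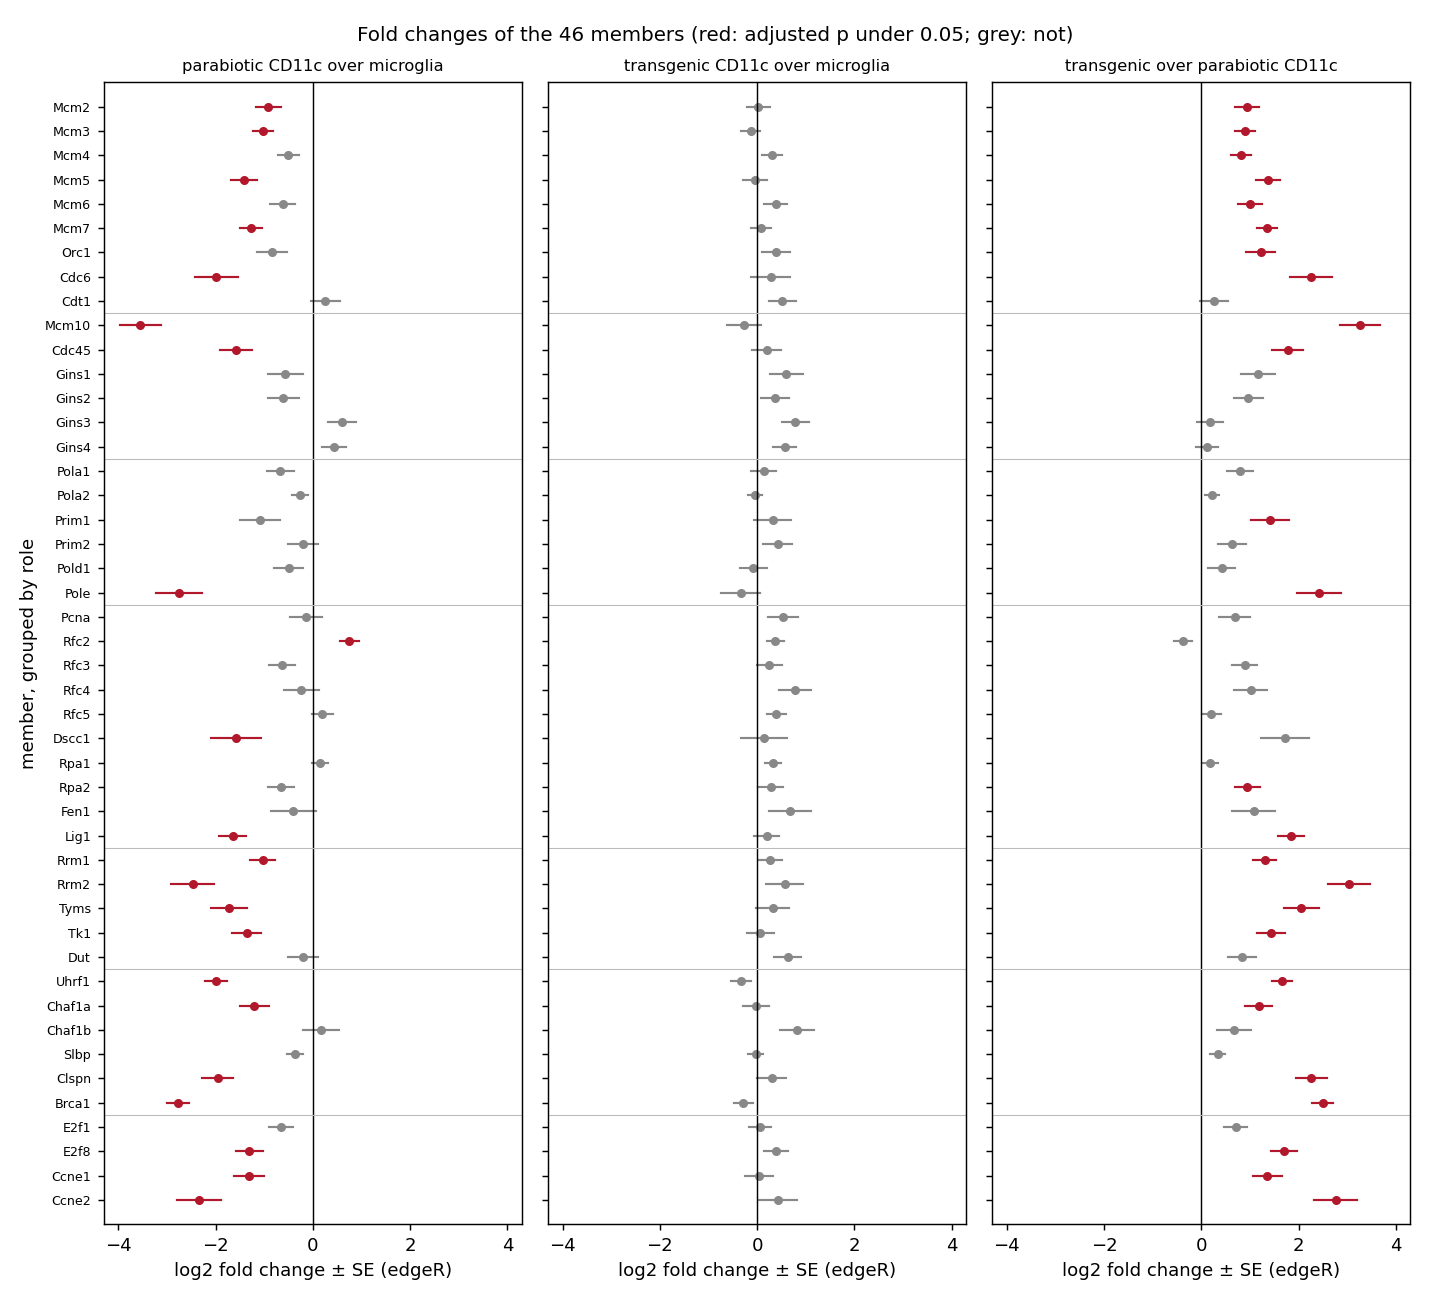
Log2 fold change (horizontal axis) with its standard error for each member, grouped by role, in parabiotic cells against microglia, transgenic cells against microglia and transgenic against parabiotic cells; red points passed an adjusted p of 0.05. In the first comparison values run from -3.55 (Mcm10) to 0.75 (Rfc2), in the second none passed, and in the third they run to 3.27 (Mcm10).

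Scaled to exon length, the members spanned a wide range in microglia, from 40.5 CPM per kb for Mcm3, 29.0 for Mcm6 and 21.3 for Rrm2 down to 0.946 for Dscc1, 0.869 for Clspn and 0.591 for Fen1. In all, 16 members share exon bases with a gene on the other strand, 11 of them with a protein-coding one. Beyond those described above, Ccne2 shares 17.4% with Ints8 (13015 counts over all libraries, against 5266 for Ccne2). Rfc4 shares 12.7% with Eif4a2 (19953 counts against 4093), and Rfc5 10.7% with Wsb2 (36726 counts against 9362). How far reads of these genes add to the members was not tested. For members with E2F letters in the promoter window, 7 of the 18 members that were lower in parabiotic cells and had a promoter held them (38.9%), against 7 of the 19 others (36.8%).

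Transgenic replicate 26 was the highest transgenic library in 42 of the 46 members, replicate 27 in 3 (Orc1, Cdt1 and Chaf1b) and replicate 23 in Pole. The level in replicate 26 over the mean of the other 3 transgenic libraries had a median of 1.68 over the members and 2.41 over the 18 mitosis genes, against 0.964 over all tested genes. By role that median was 2.03 for deoxynucleotide supply, 1.99 for firing, 1.84 for the clamp group, 1.78 for E2F and cyclin E, 1.62 for licensing, 1.43 for polymerases and 1.39 for the chromatin group. Replicates 26 and 27, which share a library number run, both lay above replicates 23 and 24 in 23 members and below both in none. With a term for that run, so that the transgenic mean rests on replicates 23 and 24, 18 members were higher in transgenic than in parabiotic cells with a median log2 fold change of 0.85, and none passed against microglia, with a median of -0.07. The 7 calls lost under it were those of Mcm2, Mcm4, Mcm6, Orc1, Prim1, Rpa2 and Chaf1a. Replicates 23 and 24 were closer to each other than any other pair of libraries within a group. Their chi-square per degree of freedom was 16.8, against 30.6 to 304 for the other pairs. Whether replicates 23 and 24 came from separate animals is not stated.

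Other gene lists of the cell cycle were read beside the members. Of 18 mitosis genes, all 18 were lower in parabiotic cells than in microglia, with a median log2 fold change of -2.55. All 18 were higher in transgenic than in parabiotic cells, while none passed between transgenic cells and microglia. Of all tested genes, 17.9% were lower and 17.4% higher in parabiotic cells than in microglia. In transgenic cells 7.63% were higher than in parabiotic cells, and 8.88% were higher and 4.79% lower than in microglia. Mki67, the nuclear antigen of cycling cells, averaged 108 ± 28.6 CPM in transgenic cells, 17.9 ± 0.475 CPM in parabiotic cells and 109.8 ± 33.8 CPM in microglia (SD, n = 4, 3 and 3), with a log2 fold change of -2.62 ± 0.27 (adjusted p = 3.57e-05) in parabiotic cells against microglia. Of 30 further genes of S phase chromatin and repair, 19 were lower and 1 (H2afz, a histone H2A variant) was higher in parabiotic cells than in microglia, with a median of -1.06. The call of H2afz was lost without parabiotic replicate 3 or 15 or microglia replicate 39 or 40. H2afz was also higher in transgenic cells than in microglia, at 1.40 ± 0.29 (adjusted p = 0.0102 by edgeR). In the same list 16 were higher in transgenic than in parabiotic cells, where 7.63% of all tested genes were. That count was 5 without parabiotic replicate 11 and 10 with the run term. Fancd2, of crosslink repair, had a log2 fold change of -2.42 ± 0.47 (adjusted p = 0.00235) in parabiotic cells against microglia.

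Of 35 other replication genes, 7 were lower and 2 higher in parabiotic cells than in microglia, with a median of 0.04. Their share of lower calls was close to the 17.9% of all tested genes, against 17.4% higher, and the 7 came down to 3 without parabiotic replicate 15. Ticrr, which brings Cdc45 to origins, had a log2 fold change of -2.50 ± 0.48 (adjusted p = 0.00222), Chtf18, of the same alternative clamp loader as Dscc1, -1.66 ± 0.41 (adjusted p = 0.00862), and Timeless, of the fork protection complex, -1.53 ± 0.35 (adjusted p = 0.00583). The 2 higher genes were Rnaseh2a, a subunit of ribonuclease H2, at 0.77 ± 0.18 (adjusted p = 0.00687), and Mcmbp, a binding protein of MCM, at 0.42 ± 0.13 (adjusted p = 0.0261). Of these 35 genes, 4 were higher in transgenic than in parabiotic cells, where 7.63% of all tested genes were, or 12 by DESeq2 and 0 without parabiotic replicate 15.

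Of 19 other genes of nucleotide supply, 2 were lower and 2 higher in parabiotic cells than in microglia, shares below the 17.9% lower and 17.4% higher of all tested genes. Samhd1, which breaks down deoxynucleotides and is high in non-dividing myeloid cells, averaged 109.9 ± 10.4 CPM in transgenic cells, 182 ± 17.2 CPM in parabiotic cells and 96.3 ± 13.7 CPM in microglia (SD, n = 4, 3 and 3). Samhd1 had a log2 fold change of 0.92 ± 0.16 (adjusted p = 0.0011) in parabiotic cells against microglia and -0.73 ± 0.15 (adjusted p = 0.00885) in transgenic against parabiotic cells. The other higher gene was Nme1, a nucleoside diphosphate kinase, with 1.22 ± 0.25 (adjusted p = 0.00288) in parabiotic cells against microglia and 1.27 ± 0.24 (adjusted p = 0.00605) in transgenic cells against microglia. Nme1 was the list's only call in the second of these. Shmt1, a serine hydroxymethyltransferase, had -1.71 ± 0.25 (adjusted p = 0.00041) in parabiotic cells against microglia, and the count of 2 lower genes came down to 1 without any 1 of the parabiotic or microglia libraries.

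Of 31 tested G1 to S regulators, 11 were lower and 4 higher in parabiotic cells than in microglia, beside 17.9% and 17.4% of all tested genes. The 4 higher, a share below that of all tested genes, became 8 without transgenic replicate 26. Cyclin D2 (Ccnd2), a G1 cyclin, averaged 30.5 ± 15.7 CPM in transgenic cells, 87.9 ± 18.2 CPM in parabiotic cells and 3.49 ± 1.14 CPM in microglia, with a log2 fold change of 4.65 ± 0.48 (adjusted p = 3.87e-05) in parabiotic cells against microglia. Cdkn1b, the Cdk inhibitor p27, was higher by 1.19 ± 0.20 (adjusted p = 0.0009), whereas Myc, a growth regulator, was lower at -1.75 ± 0.22 (adjusted p = 0.000124) and cyclin A2 (Ccna2), the S phase cyclin, at -2.76 ± 0.46 (adjusted p = 0.000855). Against microglia, transgenic cells had Ccnd2 and E2f2 higher and Myc lower on this list. These shares were below the 8.88% higher and 4.79% lower of all tested genes. The count higher was 1 with RLE or upper quartile scaling and without microglia replicate 39 or 40, among other settings.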

How the data were processed

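The authors' deposited table holds raw counts, as whole numbers, for each Ensembl gene in 10 libraries, and no other unit was used. Per the labels' protocols, cDNA was made with a template-switching kit from 1 or 5 ng of RNA and built into libraries with a kit that does not mark strand. Per the submitters' processing notes, FastQC 0.11.5, STAR 2.5.3a, DESeq2 and GRCm38 were used; the sources used here do not name the program or annotation that produced the counts. Symbols came from GENCODE M21, which held 28492 of 28585 identifiers.

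Genes were filtered by edgeR's filterByExpr by group, which kept 15151. Libraries were scaled by TMM. Each gene was fitted once over all 10 libraries by edgeR 4.0.16 (glmQLFit, robust, and glmQLFTest) in R 4.3.3, with Benjamini-Hochberg adjustment over all tested genes and a threshold of 0.05. The SE of a log2 fold change is its size over the square root of F. Log2 CPM used a prior count of 2. Alternatives were RLE and upper quartile scaling, DESeq2 1.42.0, limma 3.58.1 (voom), other filters, the compared groups alone, a term for the library number run and each library left out. Scripts were tested on simulated data. Every member is named, and each other list names at most 3 genes per direction and comparison, by lowest adjusted p. Some genes that this rule names are not reported here. The members, lists and tests were chosen with earlier results of these data known. Counts of 31534625 to 41730688 per library leave the spread between libraries, more than counting error, to set the precision.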

Additional observations from a re-analysis of the deposited data

Results flagged for a closer look

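In the 4 transgenic libraries, 10 of the 46 members and their mean had 1 library far from the other 3, by the gap to the nearest library as a share of the group's range, and in each case it was replicate 26, the highest. That share was 0.874 for Mcm4, 0.911 for Mcm6, 0.945 for Cdc6, 0.917 for Cdc45, 0.831 for Prim1, 0.902 for Fen1, 0.992 for Lig1, 0.94 for Rrm2, 0.891 for Tk1, 0.926 for Ccne2 and 0.903 for the mean of log2 CPM over the members, each above Dixon's 95% critical value for 4 samples. In all, 47 values were examined, and chance flags about 1 in 20; the members share their libraries, so these are not separate events. Replicate 26 also had the highest microglia marker sum of the transgenic libraries, 20826 CPM against 8678 to 17015 CPM in the other 3, and the lowest dendritic cell marker sum, 4148 CPM against 7041 to 17111 CPM. The part of either in its high replication genes was not tested.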

How the results depend on the processing

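The 18 alternatives left 19 of the 22 members called in parabiotic cells against microglia called throughout (all but Mcm2, Rfc2 and Dscc1), and 15 of the 25 called in transgenic against parabiotic cells. Members higher in parabiotic cells than in microglia numbered 2 with only the groups compared and with the run term, and 0 to 1 with a library left out; members lower numbered 19 to 26 with a library left out, 31 with only the groups compared and 27 with the run term. Members higher in transgenic cells than in microglia numbered 1 by DESeq2 and 0 to 2 with a library left out. Against parabiotic cells, 15 to 29 members were higher and 0 to 1 lower (Rfc2, without transgenic replicate 26) with a library left out. Over all genes with a library left out, 1683 to 3249 were higher in parabiotic cells than in microglia, 165 to 883 lower and 563 to 1801 higher in transgenic cells than in microglia, and 111 to 851 lower and 719 to 1659 higher in transgenic than in parabiotic cells. Genes lower in transgenic cells than in microglia numbered 1464 by DESeq2, 455 with only the groups compared and 280 with the run term, and those higher 774 with only the groups compared; genes lower in transgenic than in parabiotic cells numbered 844 by DESeq2 and 214 with only the groups compared. The difference in mean log2 CPM of transgenic cells minus microglia, 0.20, ran from -0.0072 (without transgenic replicate 26) to 0.32 with a library left out. Among members called under neither setting, the sign of the fold change differed in 3, 62 and 9 cases in parabiotic cells against microglia, transgenic cells against microglia and transgenic against parabiotic cells. Upper quartile scaling put the median of all genes at -0.10 in parabiotic cells against microglia. The cause of these shifts was not tested. Where a library was left out and a group kept fewer, the spread was pooled over groups. No paired analysis was possible because the groups share no replicate number. Depth limits little except for Fen1, Dscc1 and Orc1, which have the fewest counts over all libraries. It also limits some members in the parabiotic libraries. There Mcm10 had 36 to 77 counts, Pole 34 to 180, Cdc6 32 to 100 and Clspn 52 to 56.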
